A study of Mus musculus with 6 samples.

Results

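Transcripts of germline immunoglobulin variable (V) segments were followed in 6 RNA-seq libraries of mouse bone marrow neutrophils. The segments were chosen by symbol (Ighv for the heavy chain, Igkv for the kappa and Iglv for the lambda light chain) and by a level of 40 or more estimated counts summed over the 6 libraries. This kept 93 segments, 55 Ighv, 35 Igkv and 3 Iglv, out of 348 V segment rows and 47561 rows in all. Of the other V rows, 99 held 1 to 39 counts and 156 were at 0 in every library. The last segments inside the threshold were Ighv1-62-1, Ighv1-84 and the single member of the Igkv11 family, each with 40 counts in all. The first ones outside were Ighv1-39 with 37, Ighv1-78 with 36 and Ighv1-72 with 35.

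All 6 libraries came from male wild-type (WT) mice, whose marrow neutrophils were isolated by flow cytometry according to the series design. The Control group held 3 libraries with no stress named in the labels, and the CUMS group held 3 libraries of mice taken through chronic unpredictable mild stress, in which varied environmental stressors were applied in sequence over 4 weeks. The sources used here do not give age, strain or whether a library stands for 1 animal or a pool, so p-values measure the spread between these libraries, which may be technical. The series compares sorted marrow neutrophils after stress with those of Control mice, and the V segments show which antibody locus transcripts those preparations held. Which cells these transcripts came from was not tested.

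A V segment is one of many germline pieces from which a B cell precursor builds an antibody gene. The RAG1 and RAG2 recombinase joins 1 V segment to a D and a J segment in the heavy chain locus, and to a J segment in the kappa or lambda locus, and the joined piece is spliced to a constant region such as Ighm. A B cell clone carries its own joins, so the V segments seen in bulk RNA can reflect which clones and precursors were sampled. V segments are also transcribed before they are joined, and a count per segment does not tell joined from unjoined transcripts. In a bulk sample, fewer cells of a type and less RNA per cell cannot be told apart.

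Families of V segments arose by duplication, and reads of near copies can be exchanged between them. Of the 93 segments, 58 had another V segment at 95% identity or more over the V exon and 6 had one at 98% or more, while none had an identical copy. Each single value is therefore uncertain for those segments. The kappa pair Igkv1-117 and Igkv1-110 is shown because the first fell in CUMS and the second did not. The sequences come from GENCODE M21 (GRCm38), chr6:68121528-68121827 and chr6:68270968-68271267 on the plus strand, and capitals mark the 10 bases at which the 2 differ among the 313 of the V exon.
Igkv1-117: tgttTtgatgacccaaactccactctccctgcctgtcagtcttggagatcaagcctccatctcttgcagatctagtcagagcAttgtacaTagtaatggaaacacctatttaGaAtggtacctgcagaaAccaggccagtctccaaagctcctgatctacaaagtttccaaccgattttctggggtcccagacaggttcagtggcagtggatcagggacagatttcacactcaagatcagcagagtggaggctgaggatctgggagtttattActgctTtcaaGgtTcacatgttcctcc
Igkv1-110: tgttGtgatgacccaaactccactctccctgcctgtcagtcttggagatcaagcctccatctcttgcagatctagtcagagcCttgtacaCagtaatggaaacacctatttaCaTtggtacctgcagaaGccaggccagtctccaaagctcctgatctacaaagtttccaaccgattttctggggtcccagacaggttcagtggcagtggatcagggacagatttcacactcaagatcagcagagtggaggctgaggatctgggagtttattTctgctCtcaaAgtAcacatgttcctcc

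The lambda pair Iglv1 and Iglv2 is shown because these 2 segments carried nearly all lambda V counts. Capitals mark the 8 bases at which these stretches differ, and the whole V exon differs at 9 of 305. The stretches lie at chr16:19085017-19085316 and chr16:19260401-19260700 on the minus strand (GENCODE M21, GRCm38).
Iglv1: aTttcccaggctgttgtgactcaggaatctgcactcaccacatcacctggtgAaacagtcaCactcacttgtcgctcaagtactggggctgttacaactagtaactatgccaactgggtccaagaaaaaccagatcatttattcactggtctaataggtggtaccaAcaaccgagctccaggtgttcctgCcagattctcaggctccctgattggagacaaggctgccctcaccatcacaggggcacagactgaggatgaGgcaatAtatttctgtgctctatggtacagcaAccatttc
Iglv2: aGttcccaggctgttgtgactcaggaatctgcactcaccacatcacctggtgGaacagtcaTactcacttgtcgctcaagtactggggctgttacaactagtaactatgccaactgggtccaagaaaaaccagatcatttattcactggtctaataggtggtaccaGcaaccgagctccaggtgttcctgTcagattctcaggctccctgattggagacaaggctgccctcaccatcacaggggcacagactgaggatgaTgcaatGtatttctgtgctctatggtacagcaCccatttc

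Next come the first 150 bases of the V exon of 2 highly ranked heavy chain segments that the annotation calls pseudogenes, Ighv8-10 and Ighv1-41, and of Ighv1-69, the segment with the highest level. Capitals mark the first in-frame stop codon, which Ighv1-69 lacks. The stretches are chr12:115519502-115519651, chr12:114932504-114932653 and chr12:115623316-115623465 on the minus strand (GENCODE M21, GRCm38).
Ighv8-10: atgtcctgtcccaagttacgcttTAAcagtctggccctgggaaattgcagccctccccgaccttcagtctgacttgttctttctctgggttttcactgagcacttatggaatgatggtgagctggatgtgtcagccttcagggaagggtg
Ighv1-41: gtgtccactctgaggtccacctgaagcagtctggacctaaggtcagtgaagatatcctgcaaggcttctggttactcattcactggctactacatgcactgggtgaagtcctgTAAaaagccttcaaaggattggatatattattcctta
Ighv1-69: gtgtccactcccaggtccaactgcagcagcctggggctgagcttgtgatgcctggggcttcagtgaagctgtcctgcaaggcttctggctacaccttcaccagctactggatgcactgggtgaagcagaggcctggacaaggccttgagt

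The libraries held 78845457 to 109757558 estimated counts, where about 4 estimated counts stand for 1 read pair. The V segments took 0.00409% to 0.00529% of them, or 805.5 to 1408.2 read-pair equivalents per library. Levels below are CPM, counts scaled to a total of 1e6 with TMM factors, and errors of means are SD over 3 libraries. Of the 93 segments, 83 lay under 1 CPM on average, so most single values rest on a few read pairs. A level of 12 counts, or 3 read pairs, was used as the floor in a library, and it covers counting error only. The label neutrophil was checked against 12 neutrophil markers, whose summed level was 111050 to 142451 CPM. The 14 B cell markers found in the files summed to 51.7 to 71.5 CPM.

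Heavy and lambda V transcripts were more abundant in CUMS than in Control, and kappa V transcripts were not separated. Summed Ighv CPM was 31.5, 33.4 and 36.8 in Control 1, 2 and 3 and 42.9, 39.4 and 43.2 in CUMS 1, 2 and 3. The means were 33.9 ± 2.67 and 41.8 ± 2.12 (SD, n = 3 each), a 1.23-fold difference with no overlap between the groups. Summed Igkv CPM was 7.85, 7.26 and 7.0 in Control and 8.23, 7.83 and 6.74 in CUMS. The groups overlapped, with means of 7.37 ± 0.437 and 7.60 ± 0.770. Summed Iglv CPM was 1.72, 1.42 and 1.48 in Control and 2.78, 2.24 and 2.2 in CUMS. Every CUMS library lay above every Control library, and the means of 1.54 ± 0.158 and 2.40 ± 0.327 differed 1.56-fold. These sums carry no p-value, because the segments were chosen with results of these data known.

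The lambda locus thus held a larger part of the light chain V signal in CUMS. Its share of summed Igkv and Iglv CPM was 18.0%, 16.4% and 17.5% in Control and 25.2%, 22.2% and 24.5% in CUMS, with means of 17.3% ± 0.825 and 24.0% ± 1.59 and no overlap. Kappa is the more used light chain in mice, and it led in each library here. The ratio of heavy to kappa V CPM was 4.62 ± 0.622 in Control and 5.55 ± 0.746 in CUMS, and the groups overlapped.

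**Figure D1:**
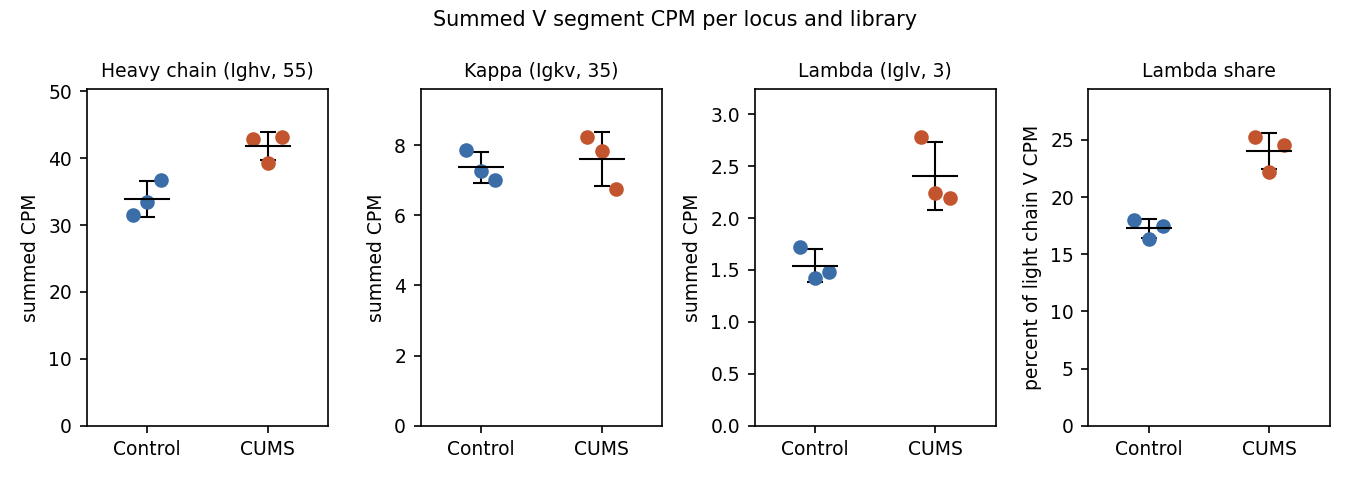
Summed CPM of the V segments of each locus, and the lambda share of light chain V CPM, in each library (points), with the mean and SD of 3 libraries (bars) and axes that start at 0. The 3 CUMS points lie above the 3 Control points for the heavy chain, lambda and the lambda share, and the kappa points overlap.

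Constant regions of the same loci were read beside the V segments, since a joined transcript carries both. Ighm, which encodes the IgM heavy chain, went up from 140.9 ± 3.47 CPM in Control to 174.9 ± 3.17 in CUMS (log2 fold change 0.31 ± 0.04 SE, adjusted p = 0.00203 by edgeR's quasi-likelihood test). Igha, the IgA heavy chain, was at 12.6 ± 0.80 and 16.6 ± 1.43 CPM and did not pass (adjusted p = 0.050), though it passed with RLE size factors (adjusted p = 0.0455). Of the 8 heavy chain constant genes, 5 were tested, 1 rose and none fell, while Ighg1, Ighg3 and Ighe were at 0 in every library. Ighg2b, an IgG heavy chain, held 30, 13 and 12 counts in Control and 51, 66 and 135 in CUMS (adjusted p = 0.0972). Ighg2c, another IgG heavy chain, was at 0 in all Control libraries and held 10, 30 and 16 counts in CUMS (adjusted p = 0.0522). Neither overlapped between the groups and neither passed. Of the 5 light chain constant genes, 4 were tested and none passed. Igkc, the kappa constant region, was at 7.21 ± 0.884 and 8.27 ± 0.724 CPM (adjusted p = 0.529).

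The V to constant ratio of CPM did not separate the groups in any locus. It was 0.217 ± 0.0150 in Control and 0.214 ± 0.0122 in CUMS for the heavy chain. For kappa it was 1.03 ± 0.124 and 0.920 ± 0.0856. For lambda it was 0.697 ± 0.197 and 1.03 ± 0.116, with Control 1 at 0.925 inside the CUMS range of 0.922 to 1.15. Summed heavy chain constant CPM differed 1.25-fold between the groups, close to the 1.23-fold of the Ighv sum. The lambda constant genes did not follow the lambda V sum in this way. Their summed CPM was 2.28 ± 0.364 in Control and 2.33 ± 0.146 in CUMS, a 1.02-fold difference with overlap, against 1.56-fold for Iglv.

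The heavy chain signal sat in a few segments. Only 8 of the 55 Ighv segments averaged 1 CPM or more, and they held 68.0% of Ighv CPM. Per kilobase of exon, the mean levels over all 6 libraries were 14.8 CPM for Ighv1-69, 11.4 for Ighv8-10, 10.9 for Ighv1-64, 9.69 for Ighv1-52, 8.56 for Ighv1-74 and 7.88 for Ighv1-41. Ighv8-12 and Ighv8-6 followed at 4.51 and 3.99 CPM per kilobase. The order of the first 3 is not firm, since each of them held the largest share in at least 1 Control library. All 8 lay 1.5 to 2.37 Mb from the J segments, in a V region that reaches 2.58 Mb from them. Summed CPM of these 8 was 23.3 ± 1.21 in Control and 28.2 ± 1.75 in CUMS, and that of the other 47 was 10.6 ± 1.5 and 13.6 ± 0.659. Both sums were higher in each CUMS library than in any Control library.

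Ighv1-69 rose in CUMS and was the one of the 8 Ighv segments of 1 CPM or more to pass the test. It lies at chr12:115623161-115623595 (GRCm38, minus strand, 2 exons). It held 312, 402 and 353 estimated counts in Control and 558, 694 and 683 in CUMS. Every CUMS library was above every Control library, in CPM as in counts. Its mean went from 4.01 ± 0.138 to 6.39 ± 0.207 CPM, a 1.59-fold rise (log2 fold change 0.67 ± 0.13 SE, adjusted p = 0.0153, edgeR). The nearest copy was Ighv1-59 at 97.4% identity. Without Control 2, CUMS 2 or CUMS 3 the adjusted p became 0.0672, 0.0568 or 0.0638, with the log2 fold change between 0.65 and 0.70 over all 6 omissions.

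The other leading Ighv segments did not pass the test. Ighv1-64 (chr12:115507545-115508031) held 292, 370 and 417 counts in Control and 411, 480 and 541 in CUMS, and the groups overlapped in CPM (log2 fold change 0.22 ± 0.17, adjusted p = 0.606). Ighv1-52 (chr12:115145487-115145919) held 217, 314 and 241 counts in Control and 328, 380 and 481 in CUMS. Its CPM did not overlap, with means of 2.88 ± 0.140 and 3.92 ± 0.519, but its adjusted p was 0.210. Ighv1-74 held 199, 356 and 246 counts in Control and 289, 317 and 311 in CUMS (log2 fold change 0.04 ± 0.19). Its level thus lay within the spread of the libraries.

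None of the 6 annotated pseudogenes among the segments passed the test. Ighv8-10 (chr12:115519340-115519782) held 305, 431 and 362 counts in Control and 372, 471 and 386 in CUMS. Its means of 4.11 ± 0.196 and 4.07 ± 0.445 CPM overlapped (log2 fold change −0.01 ± 0.15, adjusted p = 0.985). Ighv1-41 (chr12:114932371-114932782) held 217, 295 and 173 counts in Control and 208, 240 and 353 in CUMS, again with overlap (log2 fold change 0.04 ± 0.22). All 6 are Ighv, and each has an in-frame stop codon when read from its opening ATG, starting at base 58 to 322. The other 87 segments were read in their annotated coding frame, and the one with a stop codon, Iglv3, named here after the search, has it at base 367 of 370, at the end of the segment. Summed pseudogene CPM was 7.50 ± 0.338 in Control and 8.15 ± 0.193 in CUMS, which did not overlap, and as a share of Ighv CPM it was 22.2% ± 1.55 and 19.5% ± 0.978, which did. Without the pseudogenes the Ighv sum was 26.4 ± 2.55 in Control and 33.7 ± 2.07 in CUMS, a 1.27-fold difference with no overlap. In the annotation 69 of 183 Ighv and 60 of 160 Igkv segments are pseudogenes, and no Igkv pseudogene reached 40 counts.

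Among kappa segments, Igkv1-117 fell. It lies at chr6:68121046-68121827 (GRCm38, plus strand) and held 93, 119 and 66 counts in Control and 12, 27 and 24 in CUMS. It led the kappa locus in Control 1 and 2 and was low in all CUMS libraries, with no overlap. Its mean was 1.04 ± 0.226 CPM in Control and 0.202 ± 0.0528 in CUMS, 5.13-fold lower (log2 fold change −2.34 ± 0.42 SE, adjusted p = 0.0107, edgeR). Without Control 2 the adjusted p became 0.0596.

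Its near copy Igkv1-110 (chr6:68270485-68271267), 96.8% identical, held 56, 91 and 73 counts in Control and 131, 101 and 124 in CUMS. Its CPM did not overlap either, but in the opposite direction, and it did not pass (0.818 ± 0.0908 and 1.20 ± 0.328 CPM, log2 fold change 0.55 ± 0.31, adjusted p = 0.418). The difference between the 2 folds was not tested, and whether reads moved between the copies was not tested. The third Igkv1 segment, Igkv1-135, held 47, 61 and 28 counts in Control and 27, 26 and 14 in CUMS (adjusted p = 0.348). Igkv10-96, of another family and among the 5 highest Igkv segments, held 27, 27 and 59 counts in Control and 40, 45 and 22 in CUMS (adjusted p = 0.894). Igkv1-135 was lower in each CUMS library without passing, and Igkv10-96 overlapped between the groups.

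The remaining called segments were near or at 0 in one group, so their fitted fold changes depend on a prior count and are not given. Igkv3-1 (chr6:70703578-70704177), one of the 2 segments nearest the kappa J segments, held 0, 0 and 4 counts in Control and 50, 75 and 59 in CUMS. It rose (adjusted p = 0.0177, edgeR), with 1 read pair in Control against 46 in CUMS, a ratio of 40.4 (95% exact interval 6.90 to 1630, counting error only). Without Control 2, CUMS 2 or CUMS 3 its adjusted p became 0.0519, 0.0887 or 0.0667. Its neighbour Igkv3-2 held 0, 14 and 10 counts in Control and 46, 43 and 50 in CUMS, did not overlap and did not pass (adjusted p = 0.210).

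Igkv4-80 (chr6:69016558-69017080) was at 0 in all 3 Control libraries and held 23, 14 and 62 counts in CUMS. It rose at least 2.37-fold against a floor of 12 counts per Control library (adjusted p = 0.0275), with 59.0% of its CPM in CUMS 3. The call was lost without Control 1, 2 or 3 or CUMS 3, with adjusted p of 0.0528, 0.0766, 0.0688 and 0.136, and with the replicate block (0.0578). Igkv4-74 (chr6:69184826-69185397), of the same family, went the other way. It held 39, 18 and 11 counts in Control and 0 in each CUMS library, and it fell at least 2.22-fold (adjusted p = 0.0350). Control 1 held 62.1% of its CPM, and the call was lost in each of the 6 omissions of 1 library, with adjusted p from 0.0579 to 0.119, and with the replicate block (0.0778).

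Among heavy chain segments of low level, Ighv7-1 and Ighv10-3 rose. Ighv7-1 (chr12:113896408-113896946) held 0, 3 and 0 counts in Control and 31, 67 and 23 in CUMS (adjusted p = 0.0399), a read-pair ratio of 26.4 (95% exact interval 4.38 to 1075). Its call was lost without any one library but Control 2, with adjusted p up to 0.178. Ighv10-3 (chr12:114523441-114523905) was at 0 in all Control libraries and held 9, 21 and 31 counts in CUMS (adjusted p = 0.0471), at least 1.42-fold above the floor. Its call was lost in each of the 6 omissions, with adjusted p from 0.0616 to 0.181, and with the replicate block (0.111). These calls therefore rest on few read pairs.

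**Figure D2:**
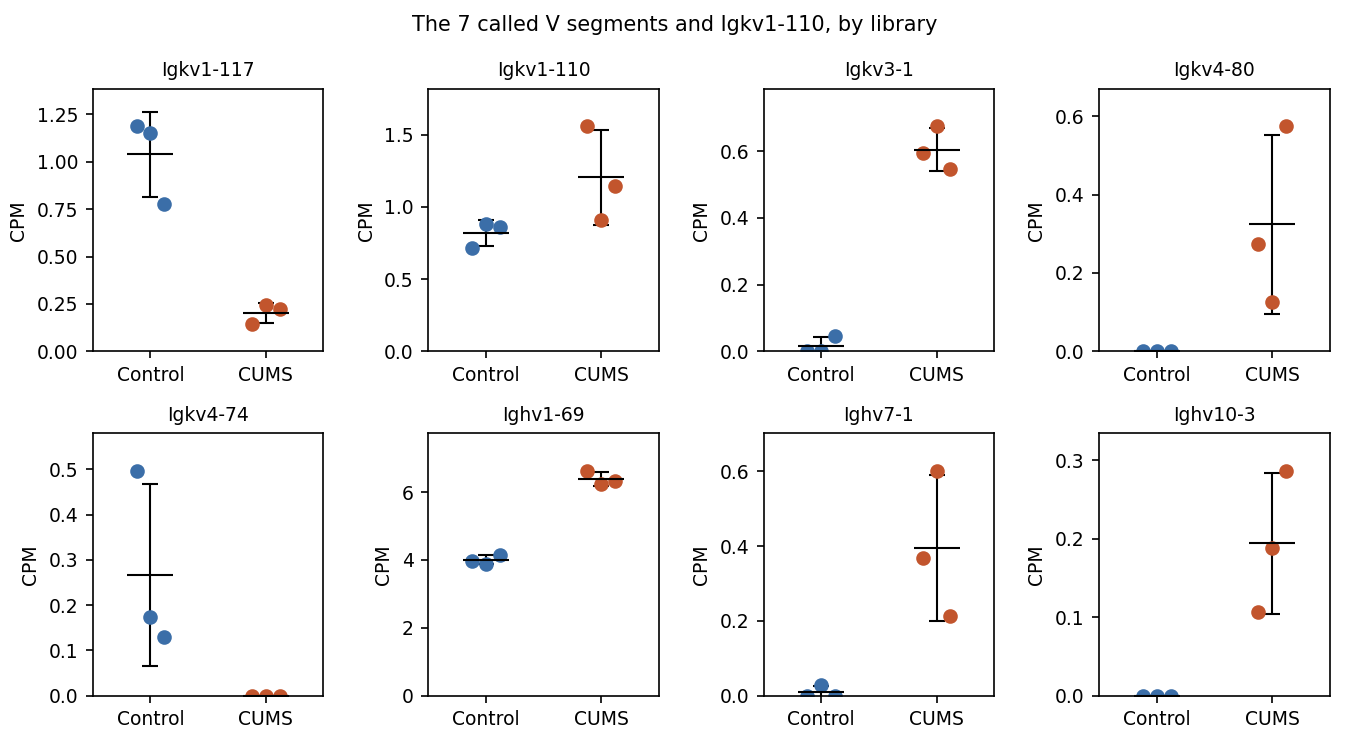
CPM of the 7 V segments that passed the test and of Igkv1-110, the near copy of Igkv1-117, in each library (points), with the mean and SD of 3 libraries (bars). Igkv1-117 and Igkv4-74 are lower in all CUMS libraries, and the other 6 are higher in all CUMS libraries, although Igkv1-110 did not pass the test.

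The lambda segments did not pass one by one. Iglv1 (chr16:19085017-19085500), which led its locus in every library, held 97, 97 and 96 counts in Control and 183, 190 and 171 in CUMS. Its CPM did not overlap, at 1.10 ± 0.151 and 1.82 ± 0.312, but its adjusted p was 0.165 (log2 fold change 0.72 ± 0.25). Iglv2 (chr16:19260401-19260859) held 35, 36 and 17 counts in Control and 44, 57 and 53 in CUMS, did not overlap and had an adjusted p of 0.617. Iglv3 held 3, 14 and 13 counts in Control and 7, 2 and 13 in CUMS, which overlapped. Of the lambda constant genes, Iglc1 was at 1.09 ± 0.0831 and 0.788 ± 0.194 CPM and Iglc3 at 0.536 ± 0.0685 and 0.866 ± 0.0961, and neither passed (adjusted p = 0.526 and 0.355).

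In all, 5 of the 93 segments rose and 2 fell, or 5.38% and 2.15%, while 2.05% of all 16628 rows tested rose and 1.91% fell. The share that fell was thus near the background. By locus, 3 Ighv rose and none fell, 2 Igkv rose and 2 fell, and no Iglv passed. Unadjusted p was under 0.05 for 21 segments with higher and 11 with lower levels in CUMS, against 8.22% and 8.17% of all rows tested. The libraries of the 2 groups did not overlap in 30 segments that were higher in CUMS and 16 that were lower, or 32.3% and 17.2%, against 11.2% and 11.2% of all rows tested. A segment of low total could reach 40 counts through 1 group alone, as the 3 at 0 in all Control and the 2 at 0 in all CUMS libraries did. These counts are therefore a description and no support for a difference. The median log2 fold change was 0.42 over the 93 segments, or 0.40 with the 5 segments at 0 in a group set to their bound (no change where the other group was under the floor too), and −0.01 over all rows tested.

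**Figure D3:**
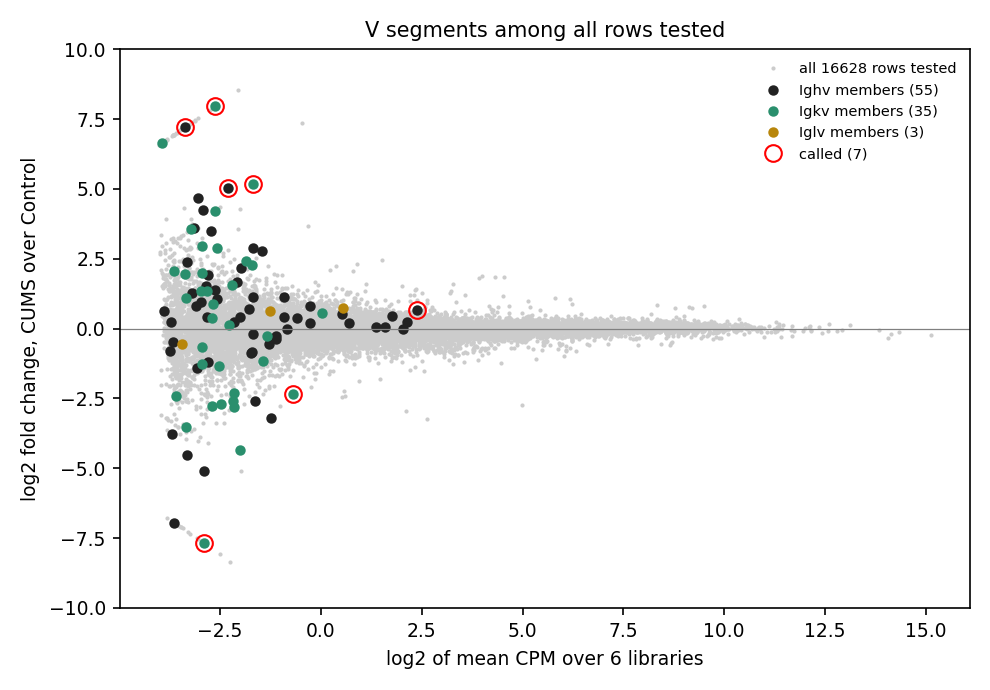
Log2 fold change of CUMS over Control (y axis) against the log2 of mean CPM over 6 libraries (x axis) for all 16628 rows tested (grey) and the 93 V segments, with the 7 that passed the test ringed. Most V segments lie at the left, under 1 CPM, where folds spread widely, and values beyond about 6 in size are of segments at 0 in a group, where the fitted fold depends on the prior count.

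The direction differed between segments of the same family. Of the 8 Ighv families with 2 or more members, 4 held non-overlapping segments in both directions, and so did 5 of 8 Igkv families. Among all 16628 rows tested, 11.2% did not overlap with CUMS higher and 11.2% with CUMS lower. Ighv1 held 9 higher and 2 lower among its 31 members. The minimum count can add segments without overlap, since a low one could pass it through the group where it was high. Why the directions differed was not tested. Ighv7-3 held 52, 68 and 82 counts in Control and 0, 0 and 26 in CUMS, opposite to Ighv7-1, and did not pass (adjusted p = 0.167). In Igkv3, Igkv3-7 and Igkv3-10 were lower in each CUMS library while Igkv3-1 and Igkv3-2 were higher. Igkv3-10 held 33, 32 and 39 counts in Control and 0, 18 and 0 in CUMS (adjusted p = 0.306). The Igkv5 family, with 3 members, was higher in CUMS as a sum, at 0.224 ± 0.165 and 1.01 ± 0.354 CPM. Ighv1, the largest family with 31 members, summed to 23.3 ± 1.30 and 29.0 ± 1.74 CPM, and Ighv8, with 6, to 7.68 ± 0.665 and 8.78 ± 0.119. Other family sums were lower in CUMS, at 0.499 ± 0.201 and 0.123 ± 0.0478 CPM for Igkv2, 0.524 ± 0.203 and 0.230 ± 0.0712 for Igkv9, 0.380 ± 0.110 and 0.0599 ± 0.104 for the single Igkv15 segment, and 0.772 ± 0.169 and 0.474 ± 0.118 for Ighv7. None of these 7 sums overlapped between the groups. Over all 28 families, 11 sums were higher and 4 were lower in CUMS without overlap. Some of these families are single segments of low level, which could pass the minimum count through the group where they were high. The single Igkv11 segment, at 0 in all Control libraries, is an example. These counts of families are therefore a description and no support for a difference.

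Single segments dominated the lambda locus and no other. The leading segment of the heavy chain was Ighv1-69 in Control 1, Ighv8-10 in Control 2 and Ighv1-64 in Control 3, with 12.6%, 12.5% and 13.4% of Ighv counts. In CUMS 1, 2 and 3 it was Ighv1-69 each time, with 15.4%, 15.8% and 14.6%. The groups did not overlap, with means of 12.8% ± 0.474 and 15.3% ± 0.612. The highest 5 segments together held 53.5% ± 1.39 in Control and 53.3% ± 0.924 in CUMS, so the lead of 1 segment was not matched by the group of 5.

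In the kappa locus Igkv1-117 led Control 1 and 2 with 15.1% and 15.8% of Igkv counts, and Igkv1-110 led Control 3 with 12.3%. Igkv1-110 led CUMS 1, 2 and 3 with 18.9%, 11.6% and 17.0%. Igkv1-117 thus led no CUMS library, and the leading shares overlapped between the groups. In the lambda locus Iglv1 held 66.0% to 78.2% in all 6 libraries. The inverse Simpson number, the count of equally used segments that would give the same concentration, was 13.9 ± 0.665 and 14.0 ± 0.0730 for the heavy chain. It was 14.8 ± 1.46 and 16.2 ± 2.75 for kappa and 1.78 ± 0.180 and 1.62 ± 0.107 for lambda, and the groups overlapped in each locus.

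More V segments were seen in CUMS, where more V reads were sampled. Counting every V row, Ighv segments at 12 or more counts numbered 26, 41 and 36 in Control and 42, 45 and 45 in CUMS. Igkv segments numbered 20, 20 and 18 in Control and 22, 29 and 23 in CUMS. Neither set overlapped at this cut. At 4 or more counts Igkv segments numbered 27, 39 and 39 in Control and 37, 45 and 36 in CUMS, which overlapped. Ighv segments numbered 48, 58 and 58 in Control and 66, 62 and 65 in CUMS, which did not. Depth differed too, with Ighv read-pair equivalents of 643, 919 and 821 in Control and 957, 1138 and 1221 in CUMS. For Igkv the Control libraries gave 164, 230 and 180 read-pair equivalents, overlapping the 203, 255 and 215 of the CUMS libraries. At a common 643 read pairs the expected number of Ighv segments was 63.1 ± 1.92 in Control and 65.3 ± 2.77 in CUMS. At 164 read pairs it was 35.6 ± 4.92 and 39.3 ± 3.14 for Igkv. Both overlapped, so a wider set of segments in CUMS was not detectable at this depth.

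The share of kappa V signal far from the J segments was lower in CUMS, in part through single segments. The kappa V region was divided at its midpoint, 1.58 Mb from the J segments, and the part beyond it held 14 of the 35 segments and 57.3%, 66.8% and 61.1% of Igkv CPM in Control. In CUMS it held 44.4%, 42.9% and 49.4%, all below Control, with means of 61.8% ± 4.80 and 45.6% ± 3.39. The called segments Igkv1-117 on the far side and Igkv3-1 near the J segments both bear on this share. Igkv1-117 held 15.1%, 15.8% and 11.1% of Igkv counts in Control 1, 2 and 3. Igkv3-1 held 7.2%, 8.6% and 8.1% in CUMS 1, 2 and 3. The share without these 2 segments was not computed. The separation of the groups may therefore rest on them, and no shift of the other kappa segments is shown. In the heavy chain the part beyond the midpoint of 1.29 Mb held 32 of 55 segments and 88.3% ± 1.70 of CPM in Control and 87.1% ± 0.547 in CUMS, with overlap.

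**Figure D4:**
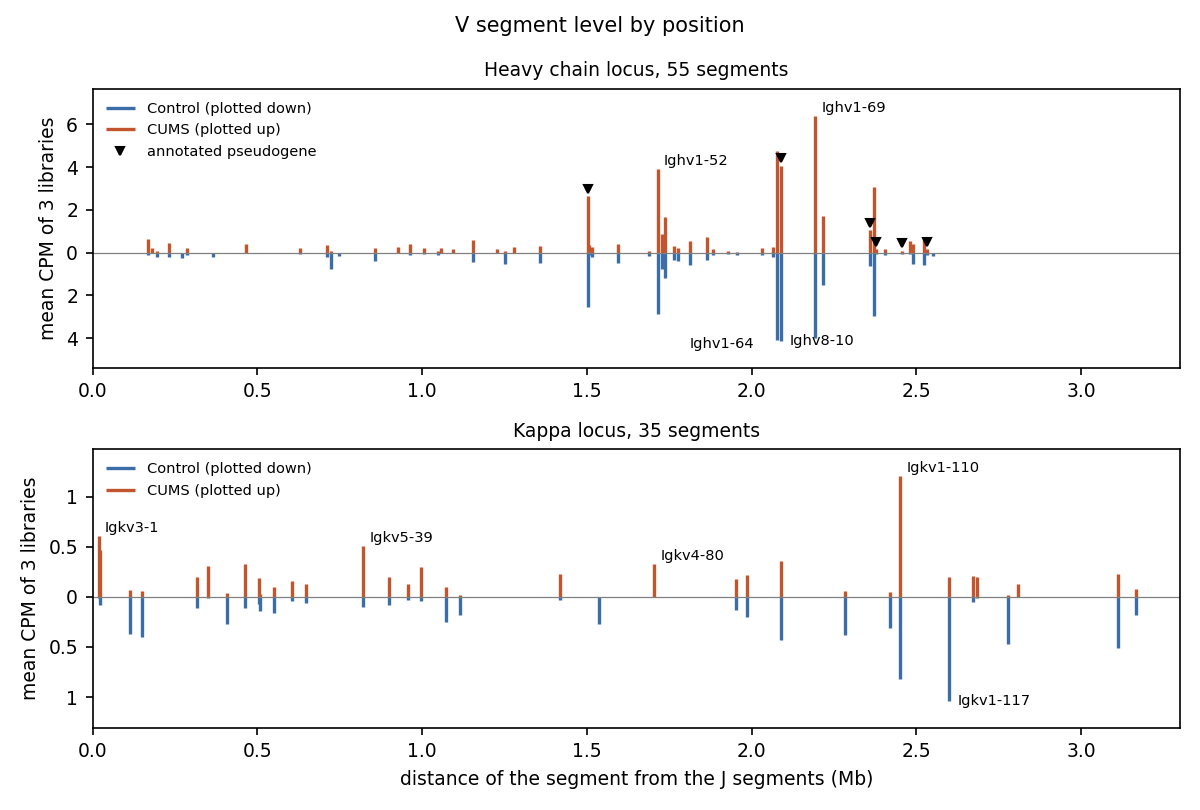
Mean CPM of each V segment by its distance from the J segments in Mb, for the heavy chain (top) and kappa (bottom), with CUMS drawn upward and Control downward from 0 and annotated pseudogenes marked. Most of the heavy chain signal lies beyond the midpoint of 1.29 Mb in both groups, while kappa segments near the J segments, such as Igkv3-1, stand up in CUMS and Igkv1-117 stands down in Control.

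Kappa V profiles, and those of the less abundant heavy chain segments, were more alike within a group than between groups. Across the 35 Igkv segments, Pearson's r of log2(CPM + 0.1) was 0.61 to 0.74 in the 6 pairs of libraries within a group and −0.25 to 0.14 in the 9 pairs between groups. Across the 55 Ighv segments it was 0.87 to 0.91 within and 0.65 to 0.81 between. The 47 Ighv segments under 1 CPM gave 0.64 to 0.74 within and 0.05 to 0.44 between. The lowest of these were the pairs of Control 3 with CUMS libraries, at 0.05 to 0.08, against 0.24 to 0.44 for Control 1 and 2. The 8 Ighv segments of 1 CPM or more, which hold most of the heavy chain signal, gave ranges that overlapped, 0.85 to 0.99 within and 0.75 to 0.95 between. With no minimum of 40, the 72 Igkv rows above 0 gave 0.67 to 0.76 within and 0.11 to 0.42 between. The 117 Ighv rows above 0 gave 0.88 to 0.92 and 0.76 to 0.85. The minimum can lower r between groups, since a low segment could reach 40 counts through 1 group alone. Points in each r share a pair of libraries and their depths, so these are descriptions with no p-value. Variance within a pair of libraries was also compared with Poisson counting error. For V segments it was 1.38 to 1.87 times that error within groups and 3.48 to 4.23 times between groups. For 8713 other rows, with mean counts inside the range of the V segment means, it was 2.17 to 2.57 times within and 2.495 to 3.09 times between. The V values were thus lower than those of the other rows within groups and higher between groups. The other rows were not matched to the V segments level by level, and most V segments lay under 1 CPM. The minimum can also raise the values between groups. No conclusion is drawn from the difference between the 2 sets of rows. Whether the libraries of a group are independent was not tested.

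**Figure D5:**
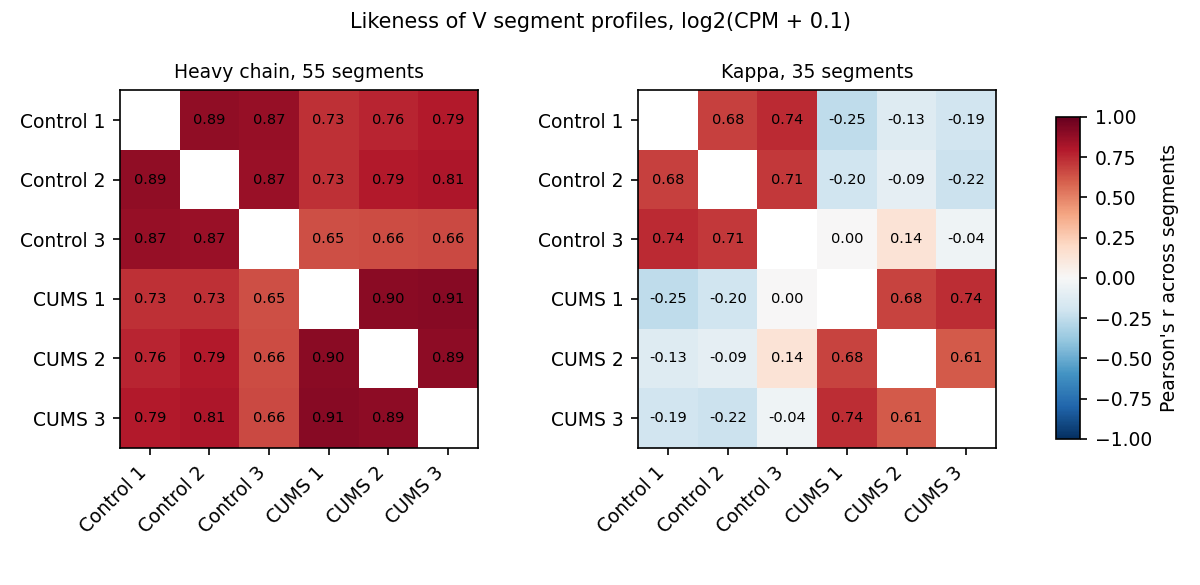
Pearson's r of log2(CPM + 0.1) between each pair of libraries, across 55 heavy chain segments (left) and 35 kappa segments (right). The 2 blocks of libraries of the same group are high in both panels, and the kappa values between groups lie near 0, from −0.25 to 0.14.

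Few segments owed most of their signal to 1 library. Over 50% of summed CPM lay in a single library for 8 of the 93 segments, 2 each in Control 1, 2 and 3 and 1 each in CUMS 1 and 3. The most extreme, named here after its values were seen, was Igkv4-55 with 0, 56 and 0 counts in Control and 4, 0 and 0 in CUMS, or 91.9% in Control 2.

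Other genes of the pathway were read from lists. Of 10 J segments tested none passed, and their summed CPM was 1.47 ± 0.104 in Control and 1.83 ± 0.173 in CUMS, with no overlap. Of 11 tested genes of V(D)J recombination and the surrogate light chain none passed. Rag1, a subunit of the recombinase, was at 3.54 ± 0.433 and 4.73 ± 0.467 CPM (adjusted p = 0.213). Of 12 genes of the B cell receptor complex none passed. None of these 3 lists held a call.

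Markers of other cells moved with the groups as well, and their part in the V results was not tested. Of the 14 B cell markers 13 were higher in CUMS and 1 passed, Spib, an Ets factor of B cells, which was at 5.36 ± 0.755 CPM in Control and rose to 8.57 ± 1.06 in CUMS (log2 fold change 0.68 ± 0.15, adjusted p = 0.0299). Their summed level was 51.7 to 60.5 CPM in Control and 68.6 to 71.5 in CUMS. Of 12 plasma cell markers tested, Xbp1 fell, from 80.7 ± 1.2 to 65.9 ± 2.46 CPM (adjusted p = 0.00755), and none rose, while Tnfrsf17 and Ly6k were at 0 in every library. Their summed level was 99.5 to 101.8 CPM in Control and 81.3 to 89.7 in CUMS, most of it Xbp1, which many cells express. Jchain, which joins IgM and IgA chains, was at 3.01 ± 0.25 and 3.70 ± 0.482 CPM and did not pass (adjusted p = 0.452).

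Of 12 erythroid markers 8 rose and none fell, with summed levels of 1315 to 1884 CPM in Control and 2530 to 3015 in CUMS. Of 11 monocyte and macrophage markers 2 rose and none fell, at 207.8 to 214.5 and 234.9 to 240.8 CPM. Of 9 T cell markers tested none passed, and their sums overlapped at 4.91 to 7.12 and 4.27 to 6.50 CPM. Of 12 neutrophil markers 1 rose and 1 fell, and their sums overlapped.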

How the data were processed

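The authors deposited whole-number values by gene, made with HISAT2 2.1 and featureCounts 1.6.4 among the tools named, on build mm10, per the submitters' processing notes. They were used as estimated counts, since the deposited values 4, 8, 12 and 16 were in excess of their neighbours (1.89, 1.66, 1.41 and 1.38 times). A read pair is therefore worth about 4, and less where it covers a segment in part. Per the labels' protocols, TruSeq libraries of 1 µg RNA were read as 150 bp pairs. The sources used here do not give strand use, the sorting gate or any UMIs.

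Rows with 40 or more counts over the 6 libraries (16628) were scaled by TMM and compared by the quasi-likelihood F test of edgeR 4.0.16 (R 4.3.3) with group as the single term, Benjamini-Hochberg over all rows and a threshold of 0.05. The test was run on simulated data with changes placed only in rows of 1 mean CPM or more. That run does not cover the level of most V segments. All 93 segments matched GENCODE M21 by symbol. Sums, shares and numbers of segments carry no test. Named segments were those that led a locus in a library, the 5 highest Ighv and Igkv and 3 Iglv, every segment past the threshold, and the nearest to the minimum of 40; others are marked where named. Segments used for families are examples chosen after their values were seen. The members and gene lists were chosen with earlier results of these data known. Promoters of V segments were not used here. Alternatives were RLE size factors, no TMM, filterByExpr, no filter, values divided by 4, the replicate number as a block, each library left out, and DESeq2 1.42.0. The labels give the replicate numbers no meaning, so whether they pair the libraries is not known.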

Additional observations from a re-analysis of the deposited data

How the results depend on the processing

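The V segment calls rest on few read pairs and most depend on single libraries. Leaving out 1 library at a time, the V segments called higher ranged from 0 to 3 and lower from 0 to 4, against 5 and 2 (0 higher without CUMS 3, 0 lower without Control 2, 4 lower without CUMS 2), and all rows called from 128 to 346 and 152 to 340, against 341 and 318. With no filter 3 V segments were called higher and 1 lower. With the replicate block, whose numbers have no stated meaning (correlations of same-numbered deviations 0.05, 0.06 and −0.03), it was also 3 and 1. With values divided by 4, V segments called lower were 4, with Ighv1-18 and Igkv9-124 added. Among those called higher, Ighv1-80 and Igkv6-17 were added and Ighv10-3 was lost. The added segments are named here for this change alone. DESeq2 called 651 rows higher and 534 lower, and among V segments 1 (Ighv1-69) and 0, with no adjusted p for 84 of the 93 segments, the other 6 called ones included.

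Over the same omissions the log2 ratio of summed CPM was 0.25 to 0.36 for Ighv, −0.02 to 0.12 for Igkv and 0.52 to 0.73 for Iglv. The leading share in CUMS minus Control was 2.22 to 2.82 points for Ighv, −0.115 to 3.55 for Igkv and 1.53 to 6.63 for Iglv. The log2 ratio of the inverse Simpson number was −0.020 to 0.045, −0.020 to 0.21 and −0.19 to −0.05. The difference in segments seen was 5.5 to 13, 3.17 to 6.67 and −0.67 to −0.17. With a minimum of 100 counts the Igkv sum gave −0.19, its leading share 6.43 points and its inverse Simpson ratio −0.23, while per kilobase the Ighv leading share gave 3.29 points. Per kilobase and without pseudogenes were chosen after seeing the data. At a common depth the Ighv difference was 2.16 segments. The Igkv sum, leading share and inverse Simpson ratio (0.04, 1.42 points and 0.13 as reported) and the Ighv inverse Simpson ratio (0.0056) thus each changed sign in at least 1 alternative. Among single genes, none of the 7 called segments changed sign. Ighv1-62-1 (main −0.81) gave 0.43 with the replicate block and −1.40 to 1.6 without 1 library, Ighv1-74 (0.04) −0.057 to 0.17, Ighv8-10 (−0.01) −0.074 to 0.074 and Igkv10-96 (−0.26) −0.53 to 0.26. Iglc2 (−0.01) gave 0.025 with the block and −0.26 to 0.15 without 1 library. The causes were not tested.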
